A study of Drosophila melanogaster with 2 samples.

Results

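The small heat shock genes of the 67B cluster of Drosophila melanogaster, together with Hsp83 and the co-chaperone gene stv (starvin), were examined in a chromatin immunoprecipitation sequencing (ChIP-seq) experiment on the nuclear protein danr (distal antenna-related). The members were chosen by name, and all 9 were found among 13968 annotated protein-coding genes. The 7 cluster genes are Hsp22, Hsp23, Hsp26, Hsp27, Hsp67Ba, Hsp67Bb and Hsp67Bc. Hsp67Bb carries the symbol CG4456 (FBgn0001228) in the annotation and was matched through its synonym. All 9 genes lie on chromosome arm 3L.

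The samples were whole embryos of a danr-GFP fly strain, collected 0 to 24 h after laying, in which the antibody recognised the GFP part of a danr-eGFP fusion protein. Both libraries belong to this 1 group and are biological replicates 1 and 2, and a control experiment that the labels name as possible was not analysed here. The embryos span all stages and tissues of embryogenesis, so a signal is an average over cell types, and how many cells of each type contributed cannot be told apart. Whether the pattern of the tagged protein matches that of the untagged one was not tested here. The values are the authors' peak lists, in which each peak has a position, a summit, an enrichment signal and a score. The score is derived from the irreproducible discovery rate (IDR), which is low where the rank of a peak repeats well between sets of reads. The thresholded lists hold peaks scored 830 or higher, equal to an IDR no higher than 0.01, but lack some peaks past that score. The ranked lists also hold weaker peaks. In the thresholded list made from both replicates there were 2653 regions with a median signal of 82.8, and in those of replicates 1 and 2 there were 1637 and 1604 with medians of 58.0 and 57.8. Read depth is unknown from these lists.

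Small heat shock proteins are ATP-independent chaperones with an alpha-crystallin domain that hold unfolding proteins in a soluble state. Hsp83 is the fly Hsp90, a chaperone that keeps signalling proteins and transcription factors competent, and stv encodes a BAG-domain protein that works with Hsp70-type chaperones, among other places at muscle attachment. On heat stress the heat shock factor Hsf binds heat shock elements, arrays of alternating GAA and TTC units, and releases paused RNA polymerase at these promoters, where GAGA factor keeps chromatin accessible. Several of the genes are also expressed without stress during development, and some of the cluster genes respond to ecdysone.

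The reference sequence under the regions is shown because it shows how far each summit lies from a heat shock element or a TATA box. Coordinates are dm6, positions are counted on the strand of the gene with the start site as 0, and negative positions are upstream. Letters in capitals mark the 8-base match GAANNTTC or TTCNNGAA, called a heat shock element from here on, although arrays of 3 alternating units are longer. They also mark the TATA box core TATAAA, the GAGA factor core GAGAG, the homeodomain core TAATTA or the DREF site TATCGATA. All were searched on both strands. The stretch directly upstream of Hsp27 (chr3L:9383813-9384062, plus strand, 250 bases) has the summit at base 82, within a run rich in A and T, and the only capitals are the TATA box.
Hsp27: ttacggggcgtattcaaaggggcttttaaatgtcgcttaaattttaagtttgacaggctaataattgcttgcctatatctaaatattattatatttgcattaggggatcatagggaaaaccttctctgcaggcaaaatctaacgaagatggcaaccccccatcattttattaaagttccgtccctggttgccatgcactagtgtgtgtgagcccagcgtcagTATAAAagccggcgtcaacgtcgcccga
The summit windows of Hsp26 (chr3L:9377471-9377571, minus strand), of stv (chr3L:13476859-13476959, plus strand) and of the Hsp83 intron (chr3L:3194221-3194321, plus strand) hold 101 bases each, with the summit at base 51. Only the Hsp26 window holds capitals, in which a TATA core and its reverse complement overlap, followed by a heat shock element and, downstream, by GAGA cores.
Hsp26: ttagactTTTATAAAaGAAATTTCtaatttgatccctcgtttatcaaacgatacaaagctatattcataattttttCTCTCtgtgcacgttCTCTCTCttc
stv: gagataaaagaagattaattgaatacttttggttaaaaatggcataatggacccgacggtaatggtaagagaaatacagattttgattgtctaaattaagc
Hsp83 intron: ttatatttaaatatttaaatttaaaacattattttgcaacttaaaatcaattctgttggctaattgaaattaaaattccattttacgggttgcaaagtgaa
At Hsp22 (chr3L:9373495-9373523, plus strand) 29 bases around the summit are shown for their overlapping homeodomain cores, and at the Hsp83 promoter (chr3L:3193137-3193166, plus strand) 30 bases around the heat shock element next to the summit.
Hsp22: TAATTAATTAttaatagctaaaaaaaaca
Hsp83 promoter: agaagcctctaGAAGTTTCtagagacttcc

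Thresholded summits lay close to the start sites of Hsp27, Hsp26, Hsp22, Hsp67Bb, Hsp83 and stv, and not within 1000 bp of those of Hsp23, Hsp67Ba or Hsp67Bc. That is 6 of 9 genes in the series list, where 13.4% of all protein-coding genes had a summit within this distance. Hsp22 and Hsp67Bb overlap and shared 1 region, so the 6 genes stood for 5 regions. In the conservative list, which rests on agreement between the biological replicates, 5 members were counted against 11.0% of all genes. The list of replicate 1 alone counted 6 members against 8.81%, and that of replicate 2 alone counted 5 against 9.09%. Hsp26 was the member that the conservative list and replicate 2 lacked. The members were named with these results known and most are neighbours in 1 cluster, so their count is a description and was not tested.

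**Figure D1:**
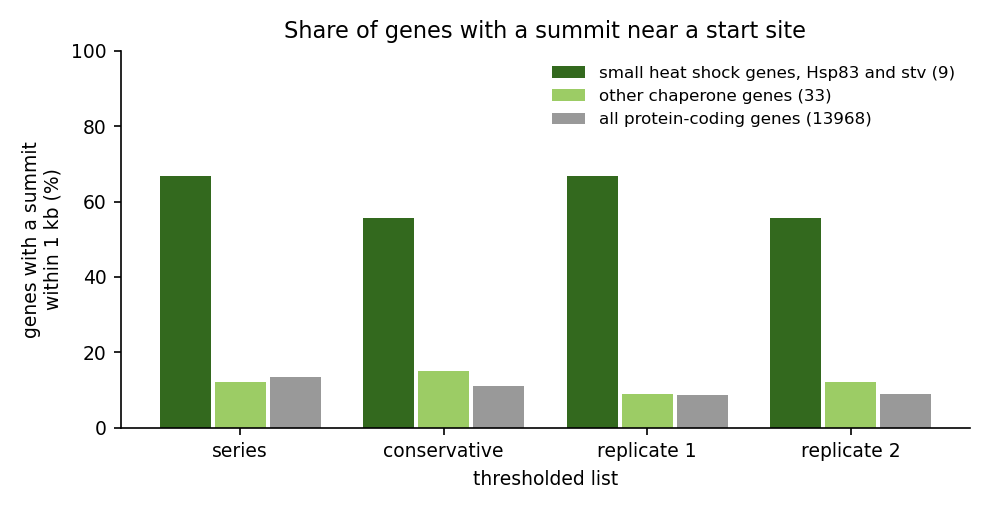
Share of genes (%, vertical axis) whose start sites had a summit at no more than 1000 bp in the 4 thresholded lists (horizontal axis), for the 9 members, 33 other chaperone genes and all 13968 protein-coding genes. The member share was 66.7% in the series list and in replicate 1 and 55.6% in the conservative list and in replicate 2, while the other chaperone genes stayed between 9.09% and 15.2%.

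Hsp27 (FBgn0001226), a small heat shock protein found mainly in the nucleus, had the strongest region of all members. It lies on 3L from 9384063 to 9385694 on the plus strand, and its region, from 9383818 to 9384003, was intergenic with the summit 169 bp upstream of its single start site. The signal was 358, rank 92 of 2653 in the series list. It reached 160 in replicate 1 and 198 in replicate 2, or 179 ± 26.9 (SD, n = 2). Its rank was 121 of 73075 ranked peaks in replicate 1 and 83 of 99556 in replicate 2, so both libraries placed it among their strongest. The summits of the replicates were 36 bp apart, 198 and 162 bp upstream of the start. The region was the narrowest of the members' regions at 186 bp, where the other 5 were 344 bp wide. Weak pooled ranked peaks near the members also had this width of 344 bp. Strong regions elsewhere, those of mrj, CG17778 and MFS18, were also narrower than 344 bp, so a narrow region is not particular to Hsp27.

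No base of a heat shock element lay within the Hsp27 region, which at 186 bp was narrower than the 344 bp of the others. The nearest, GAAGTTTC, was 162 bp from the summit and ended at position -331 from the start site. The TATA box ran from -28 to -23, on the other side of the summit. At the Hsp83 intron and stv, elements 130 and 134 bp from the summit fell inside the 344-bp regions. The absence from the Hsp27 region therefore depends on its width. By signal in both replicates, the genes most like Hsp27 among 1765 other protein-coding genes with a counted region were CG17778 and CG17896, which share 1 region on X from 493913 to 494107 and had signals of 153 in replicate 1 and 195 in replicate 2. MFS18 on 2L followed, with 161 and 186. Their distances to Hsp27 were 0.067, 0.067 and 0.090 on the log2 scale over the 2 replicates.

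Hsp22 (FBgn0001223), which encodes a mitochondrial small heat shock protein, and Hsp67Bb, whose product is predicted to carry a rhodanese domain in place of the alpha-crystallin domain, had 1 region between them. Hsp22 lies on 3L from 9372931 to 9374964 and Hsp67Bb from 9372722 to 9374964, both on the plus strand, and each has an annotated transcript from 9372931 to 9374964. The region from 9373337 to 9373680 had its summit 488 bp upstream of the inner Hsp22 start at 9373997 and 578 bp downstream of the start at 9372931 that both genes share. The annotation places the summit in the 5' UTR of the long Hsp22 transcript and in the 3' UTR of Hsp67Bb transcripts. The signal was 107, rank 875 of 2653. It was 55.4 in replicate 1 and 41.8 in replicate 2, or 48.6 ± 9.59 (SD, n = 2), and the region passed the threshold in both.

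The sequence at the Hsp22 summit was the richest in A and T among the 6 member windows, at 87.1% over 101 bases. It held overlapping TAATTA matches that ended at position -5 from the summit and a further one that began 23 bp after it. Of all 2632 windows of this size on the 7 chromosomes, 9.50% held TAATTA. The promoter elements of Hsp22 lay further downstream, with heat shock elements at positions -188 to -181 and -87 to -80 from the inner start and a TATA box at -28 to -23. Neither of these elements lay within the region, and the nearest was 300 bp from the summit.

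Hsp26 (FBgn0001225), a cytosolic small heat shock protein, had the largest ratio between replicates of the 6 member regions, although the difference in signal units was larger at Hsp27. It lies on 3L from 9376418 to 9377427 on the minus strand. Its region from 9377349 to 9377692 had the summit 94 bp upstream of the outer start site, with a series signal of 57.3, rank 2190 of 2653. The signal was 46.2 in replicate 1, rank 1255 with the top score of 1000, and 16.6 in replicate 2, rank 16592 with a score of 30. The mean was 31.4 ± 20.9 (SD, n = 2), and the signal in replicate 1 was 2.78 times that in replicate 2. Over the 2487 series regions with a ranked peak in both replicates, 85.3% were within 2-fold. In the list that pairs the biological replicates the Hsp26 peak had a score of 215, below the limit.

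The Hsp26 summit lay between named promoter elements. A heat shock element, GAAATTTC, ran from -128 to -121 relative to the outer start, 27 bp from the summit. GAGA cores of the region lay 26 to 63 bp downstream of the summit, those past 47 bp outside the printed window. The TATA cores in the printed window lay between -137 and -130 from the outer start. Another, at -28 to -23 from the inner start at 9377375, lay 118 to 123 bp downstream of the summit. The region also held TTCTCGAA at -216 to -209 and TTCTAGAA at 3 to 10 from the outer start. The antisense RNA gene asRNA:CR43481 starts 639 bp from the same summit, so the region also counts for that gene.

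Hsp83 (FBgn0001233) had 2 regions, and the stronger was in its intron rather than at its promoter. The gene lies on 3L from 3192969 to 3197059 on the plus strand, with start sites at 3192969 and 3193216. The intronic region from 3194099 to 3194442 had its summit 1055 bp downstream of the inner start, a signal of 169 and rank 403 of 2653. It reached 90.8 in replicate 1 and 74.3 in replicate 2, or 82.5 ± 11.7 (SD, n = 2), with summits 7 bp apart. The promoter region from 3192952 to 3193295 had a signal of 96.1, rank 1048, with 52.9 in replicate 1 and 39.7 in replicate 2, or 46.3 ± 9.37 (SD, n = 2). In each replicate the intronic peak was above the promoter peak, and both passed the threshold in all 4 thresholded lists. Because the intronic summit lay just beyond 1000 bp, counting within this distance reports the weaker promoter region alone.

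The summit of the Hsp83 promoter region fell between the start sites, 92 bp upstream of the inner one and in the 5' UTR of the longer transcript. It was at position -95 from the inner start in replicate 1 and -126 in replicate 2, where the outer start was nearer, 121 bp away. The heat shock element GAAGTTTC ran from -68 to -61 relative to the inner start, 24 bp from the summit, and the TATA box from -30 to -25. The window of the intronic summit was 79.2% A and T and held none of the searched motifs, against 52.5% for the promoter summit, the lowest of the 6. The start of CG14965, on the opposite strand, lay 633 bp from the promoter summit.

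The stv gene (FBgn0086708) had the second strongest signal within 1000 bp of a start, and the replicates came closest to each other there. It lies on 3L from 13477541 to 13483515 on the plus strand with 4 annotated start sites. The region from 13476737 to 13477080 was intergenic, with the summit 632 bp upstream of the outermost start, a signal of 152 and rank 504 of 2653. The signal was 76.9 in replicate 1 and 78.7 in replicate 2, or 77.8 ± 1.25 (SD, n = 2), at ranks 544 and 500. The nearest start of another gene, that of CG10089, was 2122 bp away. A heat shock element, TTCAAGAA, lay in the same region 134 bp from the summit. The promoter itself, from 250 bp upstream to 50 bp downstream of the outermost start, held GAGA cores from -241 to -68 and no heat shock element. Near the inner starts no thresholded summit was found.

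Weaker ranked peaks lay elsewhere along stv. In the pooled ranked list an overlapping peak with its summit 431 bp upstream of the outermost start had a signal of 82.5 but a score of 48. Its counterpart had 44.5 with a score of 81 in replicate 1, at position -416, and 12.6 with the top score in replicate 2, at position -452. The replicates thus differed more at this shoulder than at the main summit. Near the inner starts, a summit 511 bp upstream of the start at 13480444 had 54.9 with a score of 451 in the pooled list and 41.6 with a score of 702 in replicate 1. In replicate 2 the nearest summit to it, at position -592, had 10.6.

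**Figure D2:**
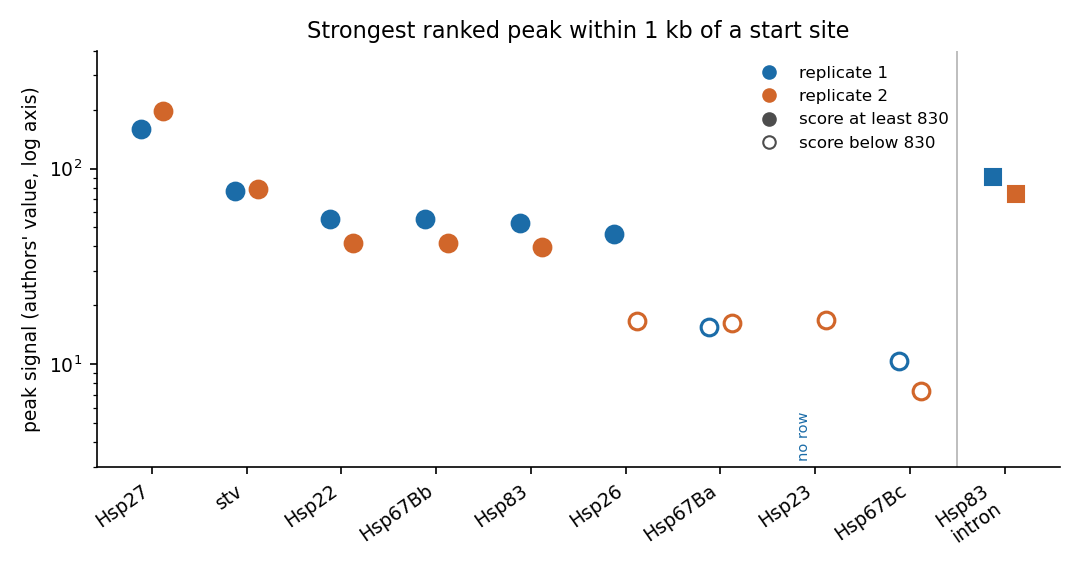
Signal of the strongest ranked peak within 1000 bp of a start site of each member (authors' enrichment value, log axis) in replicate 1 (blue) and replicate 2 (orange), with the intronic Hsp83 peak as squares at the right. Filled symbols have a score of at least 830, and open ones are below it. Hsp27 was highest in both replicates, Hsp26 was filled in replicate 1 only, and Hsp23 had no ranked peak at this distance in replicate 1.

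Hsp23, Hsp67Ba and Hsp67Bc had only weak peaks near their start sites. Hsp67Ba (FBgn0001227), on 3L from 9377802 to 9379534 on the minus strand, had 15.4 in replicate 1 and 16.2 in replicate 2, from summits 154 bp upstream and 634 bp downstream of the start, which are not the same site. Replicate 2 also had a peak of 9.47 at the upstream site, 118 bp from the start. Hsp23 (FBgn0001224), a cytosolic small heat shock protein on 3L from 9381882 to 9382765 on the plus strand, had no ranked peak in replicate 1 and 16.9 in replicate 2. Hsp67Bc (FBgn0001229), a small heat shock protein linked to autophagy, on 3L from 9371511 to 9372497 on the minus strand, had 10.4 and 7.33. The median over all ranked peaks was 11.2 in replicate 1 and 10.3 in replicate 2, and the values of Hsp67Bc were below both. In replicate 2 Hsp23 and Hsp67Ba were within the top 15.7% and 17.9% of ranked peaks by signal. The scores of all 3 genes were at most 56 in either replicate.

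The ordering of the members was Hsp27, stv, Hsp22 with Hsp67Bb, Hsp83, Hsp26 and then the remaining 3 in replicate 1, counting peaks within 1000 bp. Hsp22 at 55.4 and Hsp83 at 52.9 in replicate 1, and 41.8 and 39.7 in replicate 2, differed by less than the spread between replicates. In replicate 2 the value of Hsp26 fell among those of Hsp23 and Hsp67Ba. The gap from Hsp27 to stv, 160 against 76.9 and 198 against 78.7, was larger than the difference between replicates for either gene.

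The counted summits farthest from a start were those of Hsp67Bb at 578 bp and stv at 632 bp. Just outside the limit of 1000 bp were Hsp67Bc, whose start lay 1012 bp from the summit of the Hsp22 region, and the Hsp83 intron at 1055 bp. Within 5000 bp every member had a summit of the series thresholded list, a distance at which 28.2% of all protein-coding genes had one. The genes of the cluster shared several of these summits. The Hsp27 summit lay 2012 bp downstream of the start of Hsp23 and 4360 bp upstream of that of Hsp67Ba, and the Hsp26 summit 2013 bp downstream of the start of Hsp67Ba.

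**Figure D3:**
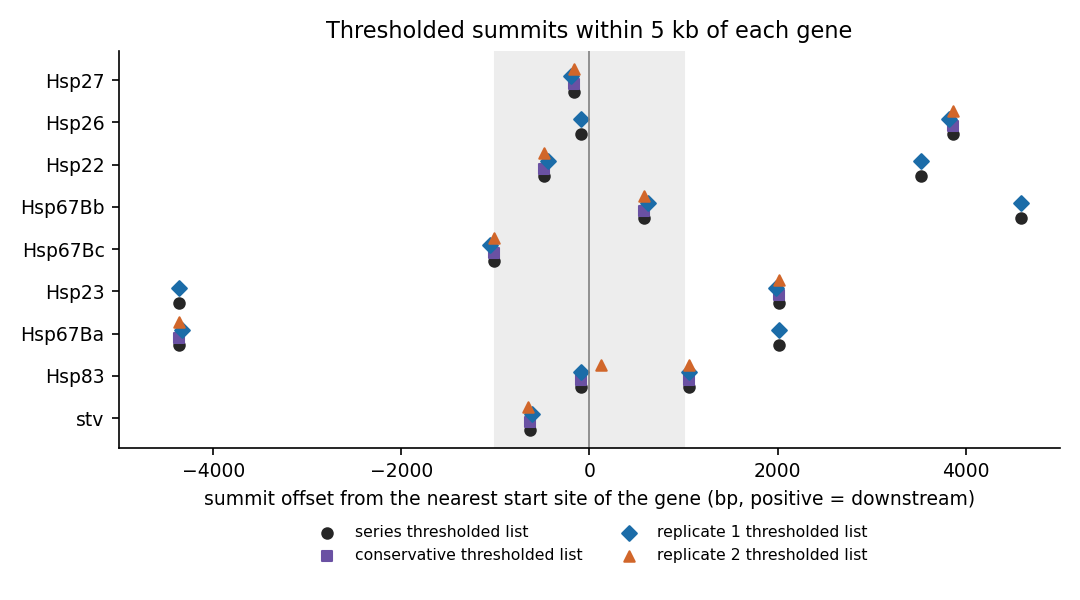
Offset of each thresholded summit from the nearest start site of each gene (bp, negative upstream) for all summits within 5000 bp, by list, with 1000 bp either side shaded. Hsp27, Hsp22, Hsp83 and stv have symbols of all 4 lists in the shaded part, Hsp26 has those of the series list and replicate 1 only, and the symbols of Hsp23 and Hsp67Ba are summits that lie nearer to Hsp27 or Hsp26.

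Across the 67B cluster the thresholded signal was limited to 3 sites in replicate 1 and 2 in replicate 2. The start sites of the 7 genes span 11.6 kb, and with 5 kb on either side the span held 18 ranked peaks in replicate 1 and 21 in replicate 2. Among these the highest was at Hsp27, with 160 and 198, and the next at Hsp22, with 55.4 and 41.8. The median ranked signal in the span was 11.8 in replicate 1 and 7.33 in replicate 2, against 11.5 and 10.5 over the whole arm. Between the sites lies CG4461, a further gene of the alpha-crystallin family, with 15.2 in replicate 1 and 10.2 in replicate 2. These came from different summits, 61 and 386 bp downstream of the start. At the end of the span, Fdx1, a ferredoxin gene, had 9.90 and 3.62, also from different summits, at positions -50 and 233. The pseudogenes CR43482 and CR43483 had no ranked peak within 1000 bp of a start.

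**Figure D4:**
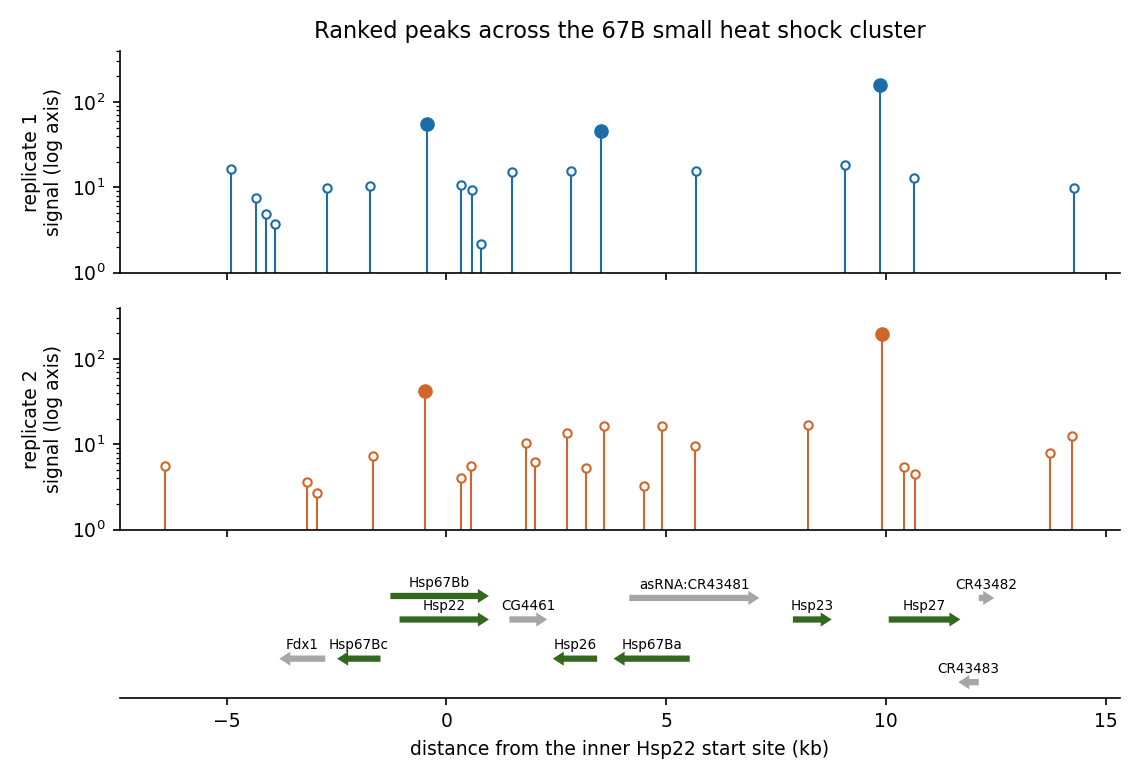
Signal (log axis) of every ranked peak across the 67B cluster in replicate 1 (top) and replicate 2 (middle) against the distance of the summit from the inner Hsp22 start (kb), with genes below as arrows in the direction of transcription (members in green, other genes in grey). Filled symbols have a score of at least 830. Peaks at Hsp22 and Hsp27 stand out in both replicates, that at Hsp26 is filled in replicate 1 only, and open peaks are spread between the genes.

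The positions of the replicates agree within short distances at most regions. The summits were 7 to 47 bp apart at the Hsp83, Hsp22, Hsp27 and stv regions and 67 bp apart at Hsp26. The ratio of replicate 2 to replicate 1 was 1.24 at Hsp27, 1.02 at stv, 0.818 at the Hsp83 intron, 0.755 at Hsp22, 0.750 at the Hsp83 promoter and 0.360 at Hsp26. Over the series regions this ratio had a median of 0.948, quartiles of 0.705 and 1.30, and 1 in 10 lay below 0.514. Only Hsp26 among the 6 member regions was below that value.

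All 6 member summits had a heat shock element nearer than the median distance over all regions, and no summit base lay within one. The 8-base element was within 50 bp of the summit at the Hsp83 promoter and Hsp26, 2 of 6 regions, against 5.05% of all 2632 windows. Within the whole interval of the region it occurred in 4 of 6, against 15.5% of all regions. This count depends on region width, which was 186 bp at Hsp27 and 344 bp at the other 5. The distance to the nearest element ranged from 24 bp at the Hsp83 promoter to 300 bp at Hsp22, where the median over all series regions was 664 bp with quartiles of 293 and 1262 bp. Arrays of 3 alternating units with every GAA and TTC base exact were found within 50 bp of no member summit, against 0.038% of all windows. No member promoter window held such an exact array, against 0.43% of all promoters. Arrays with a mismatched base were not searched, so these counts do not show that the members lack arrays. In the printed Hsp83 promoter stretch, units of the same spacing flank the element, some with a mismatched base. The members are known heat shock genes, and a match describes the sequence, not a bound site. In the promoter windows of 250 bp upstream to 50 bp downstream, 4 of 9 members held an element at the outermost start, the start searched for every gene, against 15.9% of 13968 protein-coding genes. These were Hsp23, Hsp26, Hsp67Bb and Hsp67Bc, and the match of Hsp67Bb and Hsp67Bc was 1 element between their divergent starts. Searching every start of the members added Hsp22 and Hsp83, through their inner starts, for 6 of 9. Hsp23 and Hsp67Bc had no thresholded summit near the start, while Hsp27 and stv held no element in this window.

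The other motifs were counted in the same windows. The core TATAAA was found in the promoter window of 7 of 9 members at the outermost start, all but Hsp67Ba and stv, against 45.8% of all protein-coding genes. Within 50 bp of the summit it was found at Hsp26 alone, 1 of 6 regions, against 23.2% of all regions. GAGAG was in the promoter window of 4 of 9 members, Hsp22, Hsp23, Hsp26 and stv, against 29.7% of genes, and within 50 bp of the summit at Hsp26 alone, against 9.08% of regions. TATCGATA was in the promoter window of Hsp83 alone, against 9.36% of genes, and at no member summit. The mean A+T content of the 6 summit windows was 70.8%, against 66.8% ± 9.37 (SD over 2632 windows), with single windows from 52.5% to 87.1%.

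Other chaperone genes were counted at about the background share. Of 33 other heat shock and chaperone genes, among them those for Hsp70, Hsp60 and Hsp40 proteins, 4 had a thresholded summit within 1000 bp, or 12.1% against 13.4% of all protein-coding genes. Of the 33, 32 are protein-coding, and the other, lncRNA:Hsromega, was among those not counted although it had a top-scored ranked peak. The strongest was mrj, an Hsp40 gene, with an intronic region at 257 on 2R from 16206499 to 16206598, with 134 in replicate 1 and 121 in replicate 2. Hsc70-5, the mitochondrial Hsp70, had 122, with 51.3 and 66.5. Hsc70-4, the constitutive cytosolic Hsp70, had 110, with 37.5 and 67.02, and Gp93, the Hsp90 of the endoplasmic reticulum, had 77.5, with 29.1 and 55.5. The regions of Hsc70-4 and Gp93 passed in replicate 2 and not in replicate 1.

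The classic heat-inducible Hsp70 genes did not have such regions. None of the 6 Hsp70 genes had a thresholded summit within 1000 bp, against 13.4% of all protein-coding genes. Of the 6, 4 had no ranked peak there in either replicate. These genes are near-identical to one another, and how reads that match several copies were handled is not known here, so their values are uncertain. Hsf itself had ranked peaks of 14.3 in replicate 1 and 7.97 in replicate 2. Of 6 further genes of the small heat shock family, none was counted, against the same 13.4%. Their ranked signals were at most 21.5 in either replicate. Groups this small can lack a summit at that share, so neither count was read as a trait of the genes.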

How the data were processed

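Peaks came from 2 biological replicates of 1 group, as 8 deposited peak lists on the dm6 build, per the labels. The deposited signal is the authors' enrichment value per peak, and how it was scaled, called and aligned is not given in the sources used here. Each deposited score follows the deposited −log10 of the IDR, to within 1 unit for 100% of ranked rows. Whether control libraries entered these values was not checked, and depth is unknown, so no counting interval was computed.

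Thresholded rows sharing 1 bp or more were merged into regions, and the row of highest signal gave summit and signal. Ranked rows were not merged. Ranks are by signal. A gene was counted when any of its start sites had a summit at no more than 1000 bp in the Ensembl release 115 annotation, whose assembly has dm6 coordinates. Sequences are from the RefSeq Release 6 genome. No test between groups was possible with 1 group. Scripts used Python 3.11.15 and pandas 2.3.3, and the counting was tested on simulated data. Labels of the replicates do not say whether embryos came from separate cages.

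Members and gene lists were chosen with earlier results of these data known. The text names all members, the genes around the cluster, counted chaperone genes, Hsf and the 3 genes most like the strongest member. CG14965, CG10089, lncRNA:Hsromega and DnaJ-H were named after their values were seen. Alternatives were other distances, lists, scores, start sites and window sizes. The chaperone list gave 35 names, of which Hop and CHIP were alternative symbols of Stip1 and STUB1, and HspB8 of the family list matched no further gene. The joint search for either heat shock element, the search for 3 alternating units and the distance to the nearest element were added after seeing the data. So were the search over whole regions and the search of member promoters at the outermost start.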

Additional observations from a re-analysis of the deposited data

How the results depend on the processing

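The count of members with a summit within 1000 bp, 6 of 9, was 4 within 500 bp against 11.2% of all protein-coding genes, 9 within 5000 bp against 28.2%, and 5 in the conservative list against 11.0%. It was 6 with only the top score of 1000 against 11.3%, and 6 with only the outermost start against 11.8%. Using 1 replicate alone gave 5 to 6. For the other chaperone genes, 4 of 33, the count was 7 within 5000 bp, or 21.2% against 28.2%, and 3 to 4 with 1 replicate alone. For the further small heat shock family genes, 0 of 6 against 13.4%, it was 3 within 5000 bp against 28.2%, and 0 with 1 replicate alone. The 3 were CG14207, CG4461 and l(2)efl. The cause was not tested, but a wider limit takes in more summits by construction. Within 500 bp the signals of stv fell to 44.5 and 17.5 in replicates 1 and 2, from different summits, at positions -416 and 64. Those of Hsp67Bb fell to 10.4 and 7.33, and that of Hsp67Ba in replicate 2 fell from 16.2 to 9.47. The strongest summits of these genes lie beyond 500 bp. No paired analysis was possible because there is only 1 group.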

Other observations

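The heat-inducible noncoding RNA gene lncRNA:Hsromega, 1 of the 33 other heat shock and chaperone genes, had a strong peak that no thresholded list holds. Its summit, 240 bp downstream of a start site, had a signal of 144 and the top score of 1000 in the pooled ranked list, at rank 561 of 137253. The signal was 96.1 in replicate 1 and 42.6 in replicate 2, both with the top score. It is 1 of 112 ranked rows of the series past the score limit that the thresholded list lacks. No such row lay within 5000 bp of a member. The files' descriptions name 1 more input for the thresholded lists, and its part in this was not tested.

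DnaJ-H, an Hsp40 gene, was in the conservative list and in that of replicate 1 but not in the series list. Its summit, at position -236 from the start, had a pooled signal of 59.0, with 26.0 in replicate 1 and 27.3 in replicate 2. The score was 842 in the list that pairs the replicates and 417 in the pooled ranked list.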
